A study of Rattus norvegicus with 2 samples.

Results

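The vascular endothelial growth factor (VEGF) family was followed in single cells of rat skeletal muscle and of skeletal muscle from a rat-mouse chimera. Its members were the genes whose name in the feature list, once the species suffix was removed, was Vegfa, Vegfb, Vegfc, Vegfd, Pgf, Flt1, Kdr, Flt4, Nrp1 or Nrp2. All 10 names were found, as 10 of the 23373 rows of the SD rat library and as 20 of the 49280 rows of the chimera library, where each gene had a rat row and a mouse row. The rat rows of Vegfa, Flt1 and Kdr carry the identifiers ENSRNOG00000019598, ENSRNOG00000000940 and ENSRNOG00000046829, and their mouse rows carry ENSMUSG00000023951, ENSMUSG00000029648 and ENSMUSG00000062960.

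VEGF ligands are secreted by cells around a vessel and bind receptor tyrosine kinases on endothelial cells. VEGF-A (Vegfa) binds both VEGFR1 (Flt1) and VEGFR2 (Kdr), VEGF-B (Vegfb) and placental growth factor (Pgf) bind VEGFR1, and VEGF-C (Vegfc) and VEGF-D (Vegfd) bind VEGFR3 (Flt4) and, after processing, VEGFR2. VEGFR2 passes on most of the growth signal, VEGFR1 binds VEGF-A tightly and limits how much reaches VEGFR2, VEGFR3 is best known from lymphatic vessels, and the neuropilins (Nrp1, Nrp2) are co-receptors that also bind semaphorins.

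The data came from 2 animals, with 1 library each. The chimera was grown from a Sprague-Dawley (SD) rat morula injected with mouse induced pluripotent stem cells of 1 line that carried the Dmd mdx mutation, corrected by gene editing, and the Pax7-nGFP reporter. It was 1 of 7 such animals, so host cells were rat and donor cells were mouse. The control was an SD rat that received no donor cells, and neither animal's age is given in the sources used here. Skeletal muscle from the whole body was digested with collagenase, and sorted live cells were profiled with 10x Genomics 3′ chemistry, which counts molecules (UMIs) at transcript ends. With 1 animal per group no test between animals was possible, and the 95% intervals given here cover counting error only (exact Poisson for a level, exact Clopper-Pearson for a share, exact binomial for a ratio). The purpose of the comparisons was to show which cells of the muscle held the transcripts of VEGF ligands and which held those of the receptors, and whether mouse endothelium in a rat host differed from rat endothelium.

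The chimera library held 13299 barcodes and the SD rat library 10117, of which 11804 and 8816 were kept, with medians of 7859 and 6276 UMIs. The libraries shared 43 barcode sequences. A chimera cell was called mouse when at least 80% of its UMIs lay on mouse rows and rat when at most 20% did, which gave 1856 mouse cells, 8263 rat cells and 1685 mixed barcodes. Clusters were named by markers that did not include any VEGF gene, and the names are rebuilt here rather than taken from the study. Endothelial cell (EC)-like cells numbered 1161 in the SD rat, 720 among the rat cells of the chimera and 998 among its mouse cells. Their 11 rat EC markers summed to 4106 counts per 1e+06 UMIs (CPM) in the SD rat and 3924 CPM in chimera rat cells, and the 12 mouse markers to 6433 CPM. All of these markers were detected. Fibro-adipogenic progenitor (FAP)-like cells, the mesenchymal stromal cells of muscle, numbered 3258, 2656 and 127 in the same order. A level in CPM is the gene's UMIs on the cells' own species' row over all UMIs of the class on that species' rows.

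Rat cells of the chimera also carried UMIs on mouse rows. The median share was 14.3% in rat EC-like cells, 12.2% in FAP-like cells and 9.55% in T or NK-like cells, and in rat EC-like cells it reached the upper limit of the rat call, with a highest value of 19.98%. Only the chimera was mapped to both genomes, so a rat transcript read as mouse would lower the rat level in the chimera and not in the SD rat. For a level with both rows summed, the gene's UMIs on both rows are divided by all UMIs of the class. Free RNA of mouse cells in a rat barcode would add to both of these numbers, so it can raise or lower the summed level. The parts of these 2 sources were not tested. Values with the rat and mouse rows summed are therefore given beside the members past 2-fold between the animals.

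The promoters of both main receptor genes are shown because Flt1 and Kdr were each highest in EC-like cells in all 3 cell populations. The windows are RefSeq sequences of rat build GRCr8, a later build than the mRatBN7.2 rows of the files, and run from 250 bases before to 50 bases after the annotated start, both on the plus strand, Flt1 at chr12:12333180-12333479 and Kdr at chr14:32571813-32572112. Capitals mark AGGAAG or its reverse CTTCCT, a core of the sequence bound by ETS factors, which are known regulators of endothelial genes.
Flt1: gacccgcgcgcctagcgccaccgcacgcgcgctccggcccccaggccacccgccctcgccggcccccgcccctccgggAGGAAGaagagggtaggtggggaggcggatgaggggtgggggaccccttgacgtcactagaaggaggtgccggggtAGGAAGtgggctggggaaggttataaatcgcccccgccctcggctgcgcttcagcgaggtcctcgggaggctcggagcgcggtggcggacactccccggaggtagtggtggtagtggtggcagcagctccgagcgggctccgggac
Kdr: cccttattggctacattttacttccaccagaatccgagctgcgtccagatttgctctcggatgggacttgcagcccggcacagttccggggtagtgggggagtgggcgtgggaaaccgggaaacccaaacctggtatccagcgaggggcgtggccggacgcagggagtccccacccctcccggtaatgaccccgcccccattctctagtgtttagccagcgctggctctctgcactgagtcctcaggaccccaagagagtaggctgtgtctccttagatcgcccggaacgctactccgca
The Flt1 window held AGGAAG 2 times and the Kdr window did not hold it. All 10 members had a window and Vegfa had 2. Among these 11 windows, AGGAAG was found in 3 (Flt1, Flt4 and Vegfd), against 34.5% of all 33469 rat windows of the table. The related core CGGAAG or its reverse CTTCCG, which does not overlap AGGAAG, was found in 1 of the 11 (Nrp1), against 16.6% of all windows. The core of the hypoxia response element, ACGTG or its reverse CACGT, was found in none of the 11, against 19.3% of all windows. These matches describe the letters of the windows only. Other forms of the sequence bound by ETS factors were not searched, so a window without these matches may still hold one.

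Among the ligands, Vegfa was highest in FAP-like cells, of the named classes of sorted cells with at least 50 cells. Its level in FAP-like cells was 219.6 CPM in the SD rat (215 to 224, from 8240 UMIs), 109.6 CPM in chimera rat cells (106 to 113, from 3247 UMIs) and 58.2 CPM in chimera mouse cells (47.7 to 70.3, from 107 UMIs). In the SD rat the next levels were 89.5 CPM in myeloid-like cells, 89.2 CPM in tenocyte-like cells, 72.8 CPM in lymphatic endothelial (LyEC)-like cells and 50.1 CPM in myogenic progenitor (MP)-like cells. FAP-like cells lay above every other rat class in both animals beyond the counting intervals, and the intervals of the next classes overlapped each other in turn. EC-like cells ranked 7 of 10 classes in the SD rat with 28.0 CPM, 7 of 12 in chimera rat cells with 11.8 CPM (8.60 to 15.9) and 3 of 5 in chimera mouse cells with 7.97 CPM (6.04 to 10.3). T or NK-like cells of the chimera, which served as the background from free RNA, had 2.96 CPM (1.73 to 4.75) among rat cells and 5.77 CPM (1.87 to 13.5) among mouse cells. The level of mouse EC-like cells overlapped that of the mouse T or NK-like cells, so a Vegfa level above background was not detectable there.

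FAP-like cells also differed among themselves. In the SD rat the 6 FAP-like clusters ranged from 101 CPM in a cluster of 84 cells led by Apod and Myoc to 291 CPM in a cluster of 610 cells led by Serpinf1, Cpz and Sfrp4. In chimera rat cells the 7 FAP-like clusters ranged from 64.5 to 149 CPM, and the ends were again a cluster led by Apod and Myoc (144 cells) and one with Sfrp4 among its leading genes (606 cells). Every FAP-like cluster of the SD rat but the Apod and Myoc cluster had a higher Vegfa level, on rat rows, than the highest FAP-like cluster of the chimera. A Vegfa UMI was found in 72.3% of SD rat FAP-like cells, 54.6% of chimera rat FAP-like cells and 45.7% of mouse FAP-like cells. After each cell was thinned to 1000 UMIs the shares were 17.2% (16.0 to 18.6), 9.18% (8.11 to 10.3) and 5.65% (2.30 to 11.3). A Vegfa UMI was found in 2.27% of chimera rat T or NK-like cells, and after thinning in 0 of 703 such cells, with an interval of up to 0.523%. The intervals of the thinned shares of rat FAP-like cells did not overlap between the animals. All these shares count own-species rows only. Chimera rat FAP-like cells held 3247 Vegfa UMIs on the rat row and 4572 with the mouse row added. Their UMIs on the mouse row are thus left out of the shares, and shares with rows summed were not computed. Medians of own-species UMIs in FAP-like cells were 11026, 10694 and 14570.

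The other ligands were spread over more classes, apart from Vegfd. Vegfb was highest in myocyte-like cells of the SD rat, with 66.6 CPM (60.5 to 73.1), and 38.8 CPM in those of the chimera. MP-like cells had 25.2 and 28.4 CPM, mast cell-like cells 28.1 and 21.4 CPM, and EC-like cells were lowest among the SD rat classes with at least 50 cells, at 6.95 CPM. By number of molecules, 47.9% of the SD rat's Vegfb UMIs lay in FAP-like cells and 30.8% in myocyte-like cells.

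Vegfc was shared by stromal and endothelial cells. FAP-like cells had 35.1 CPM in the SD rat, 44.4 CPM in chimera rat cells and 21.8 CPM in chimera mouse cells. Tenocyte-like cells had 33.2, 28.4 and 44.6 CPM, and EC-like cells had 24.0 (19.7 to 29.0), 38.7 (32.7 to 45.6) and 42.8 CPM (38.1 to 47.9). MP-like and myocyte-like cells were low, at 2.69 and 1.35 CPM in the SD rat. Vegfd was rare, and all of its 78 UMIs in the SD rat lay in FAP-like cells, as did 96 of 99 own-species UMIs among the chimera rat cells. EC-like cells of the SD rat had 0 Vegfd UMIs, where 3 UMIs would be 0.673 CPM, while mouse EC-like cells had 8 UMIs (1.12 CPM).

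Pgf, a ligand for VEGFR1 alone, lay within overlapping intervals in LyEC-like, FAP-like, mural-like and EC-like cells of the SD rat, from 24.0 to 34.4 CPM. The same 4 classes led in chimera rat cells, from 15.2 to 35.2 CPM. Among mouse cells the cycling EC-like cells had 76.8 CPM (58.2 to 99.5, from 57 UMIs in 48 cells) and the other EC-like cells 26.8 CPM. MP-like cells were low in Pgf, with 1.34 CPM in the SD rat (4 UMIs) and 0.532 CPM in the chimera (2 UMIs).

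**Figure D1:**
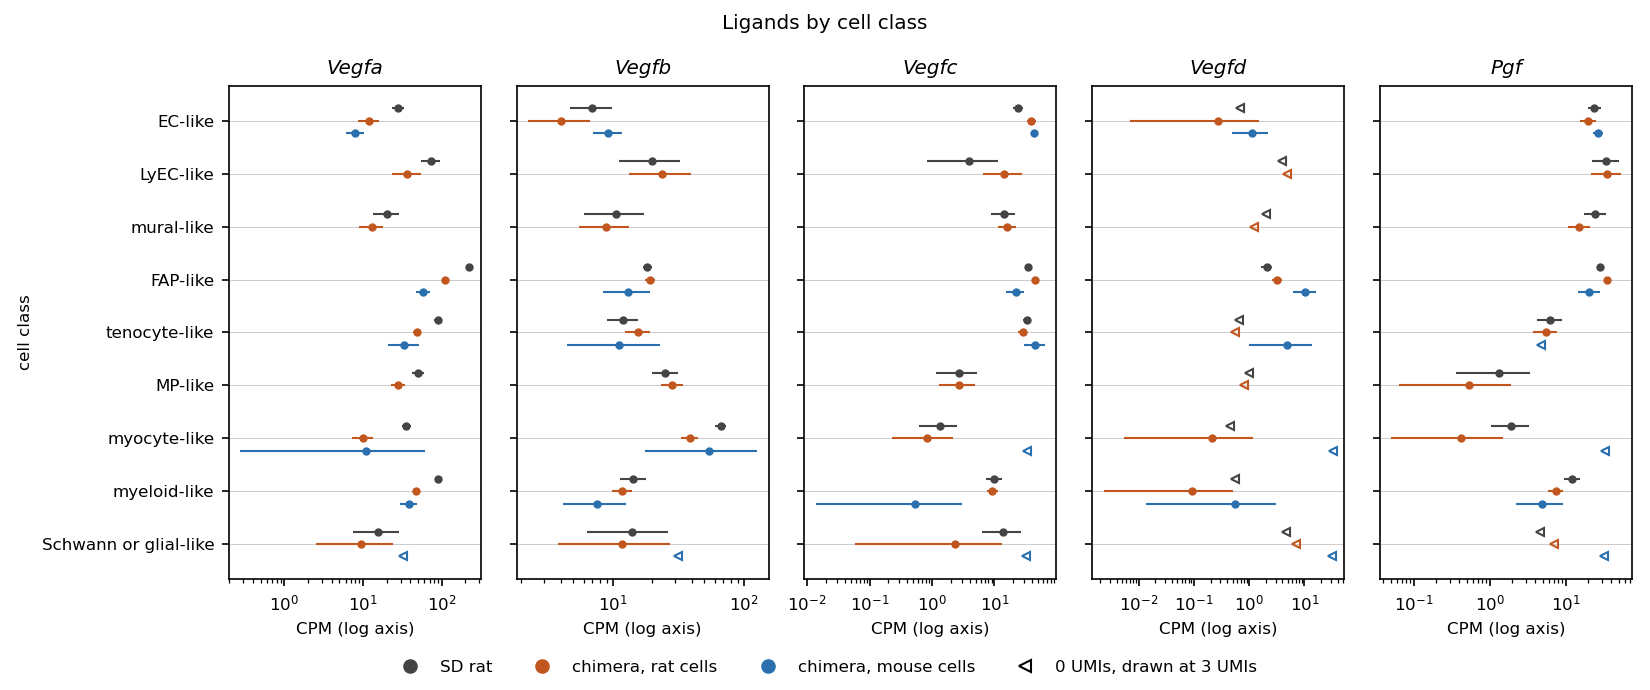
Levels of the 5 ligand genes (CPM, log axis) in each cell class of the SD rat, the chimera's rat cells and the chimera's mouse cells. Bars are 95% Poisson intervals and an open triangle at 3 UMIs marks a class with 0 UMIs; Vegfa peaks in FAP-like cells at 219.6 CPM in the SD rat, Vegfb in myocyte-like cells at 66.6 CPM.

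Among the receptors, Flt1 was highest in EC-like cells in all 3 populations. Its level was 2908 CPM in SD rat EC-like cells (2859 to 2959, from 12965 UMIs), 1876 CPM in chimera rat EC-like cells (1832 to 1920, from 6970 UMIs) and 1171 CPM in chimera mouse EC-like cells (1146 to 1196, from 8375 UMIs). The 3 values stood apart from each other. Mural-like cells, which wrap vessels, followed with 1014 CPM in the SD rat and 621 CPM in the chimera. Every other class of the SD rat with at least 50 cells and a name was at or below 38.4 CPM (myeloid-like), with FAP-like cells at 15.3 CPM and MP-like cells at 11.1 CPM. After thinning to 1000 UMIs, a Flt1 UMI was present in 88.0% of SD rat, 76.6% of chimera rat and 62.5% of chimera mouse EC-like cells. The share in MP-like cells was 1.75% in the SD rat and 0.907% in the chimera, at median depths of 6617 and 7436 own-species UMIs against 2702 and 3397 in EC-like cells. Thinning left out 107 of 1161, 67 of 720 and 28 of 998 EC-like cells, and the unthinned shares were 96.0%, 93.2% and 90.8%.

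The mural-like values came with endothelial transcripts. Summed EC markers in mural-like cells were 1707 CPM in the SD rat and 1241 CPM in the chimera, with all 11 detected. All 302 mural-like cells of the SD rat were pericyte-like, while those of the chimera were 268 pericyte-like and 154 smooth muscle-like cells. In the chimera, pericyte-like cells had 142 CPM of Flt1 and 8.49 CPM of Kdr, while smooth muscle-like cells had 976 and 143 CPM and listed the endothelial gene Fabp4 and the haemoglobin gene Hba-a2 among their leading genes. Summed EC markers were 265 CPM in the chimera's pericyte-like cells (9 of 11 detected) and 1961 CPM in its smooth muscle-like cells. The part of EC transcripts in the mural-like levels was not tested.

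Kdr was shared by blood and lymphatic endothelium. EC-like cells had 507 CPM in the SD rat (486 to 528), 392 CPM in chimera rat cells (372 to 412) and 505 CPM in chimera mouse cells (489 to 522). LyEC-like cells, found only among rat cells, followed with 271 and 251 CPM, and mural-like cells with 169 and 85.8 CPM. The order EC-like, LyEC-like, mural-like held in both animals beyond the counting intervals. Flt1 was not shared in this way, since LyEC-like cells had 14.6 CPM of Flt1 in the SD rat and 15.9 CPM in the chimera. All remaining named classes of the SD rat had at most 19.0 CPM of Kdr (tenocyte-like). Within the myeloid-like cells, a macrophage-like cluster of 96 cells in the SD rat had 33.0 CPM and one of 221 cells in the chimera had 42.8 CPM, against 5.30 and 3.15 CPM in the largest macrophage-like cluster of each animal. In thinned EC-like cells, both Flt1 and Kdr were seen in 34.2% of SD rat cells, 26.3% of chimera rat cells and 26.0% of chimera mouse cells, and neither in 7.31%, 15.6% and 25.2%.

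Flt4 marked LyEC-like cells and, at a low level, EC-like cells. LyEC-like cells had 97.9 CPM in the SD rat (76.9 to 123, from 74 UMIs) and 33.4 CPM in the chimera (20.7 to 51.1, from 21 UMIs). EC-like cells had 15.9 CPM in the SD rat (71 UMIs), 6.46 CPM in chimera rat cells (24 UMIs) and 33.8 CPM in chimera mouse cells (29.7 to 38.4, from 242 UMIs). Mouse EC-like cells thus lay above the rat EC-like cells of both animals. Lymphatic markers summed to 11.3 CPM in mouse EC-like cells (7 of 9 detected), against 53.8 and 114 CPM in rat EC-like cells of the SD rat and the chimera (8 of 8 detected in each) and 36098 and 53393 CPM in rat LyEC-like cells, and no mouse cluster was LyEC-like. FAP-like cells of the chimera rat cells had 0 Flt4 UMIs, where 3 UMIs would be 0.101 CPM.

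The neuropilins reached beyond the endothelium. Nrp1 was highest in EC-like cells, with 645 CPM in the SD rat, 445 CPM in chimera rat cells and 639 CPM in chimera mouse cells, followed by mural-like cells (281 and 145 CPM) and FAP-like cells (126, 100 and 99.0 CPM). By number of molecules, FAP-like cells held 53.7% of the SD rat's Nrp1 UMIs and EC-like cells 32.8%. LyEC-like cells had little Nrp1, with 10.6 CPM in the SD rat and 1 UMI in the chimera.

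Nrp2 showed the reverse in lymphatic cells. LyEC-like cells had 463 CPM in the SD rat and 278 CPM in the chimera, myeloid-like cells 434 and 301 CPM, and EC-like cells 352, 252 and 333 CPM in the SD rat, chimera rat and chimera mouse cells. The first 2 classes overlapped in each animal. Within the myeloid-like cells the neuropilins divided, since macrophage-like cells had 513 and 356 CPM of Nrp2 with 39.7 and 31.0 CPM of Nrp1, and monocyte or neutrophil-like cells had 92.1 and 71.3 CPM of Nrp2 with 139 and 247 CPM of Nrp1. Mouse myeloid-like cells, which were all monocyte or neutrophil-like, had 35.8 CPM of Nrp2. Schwann or glial-like cells had 74.4, 77.4 and 95.4 CPM of Nrp2, within overlapping intervals.

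**Figure D2:**
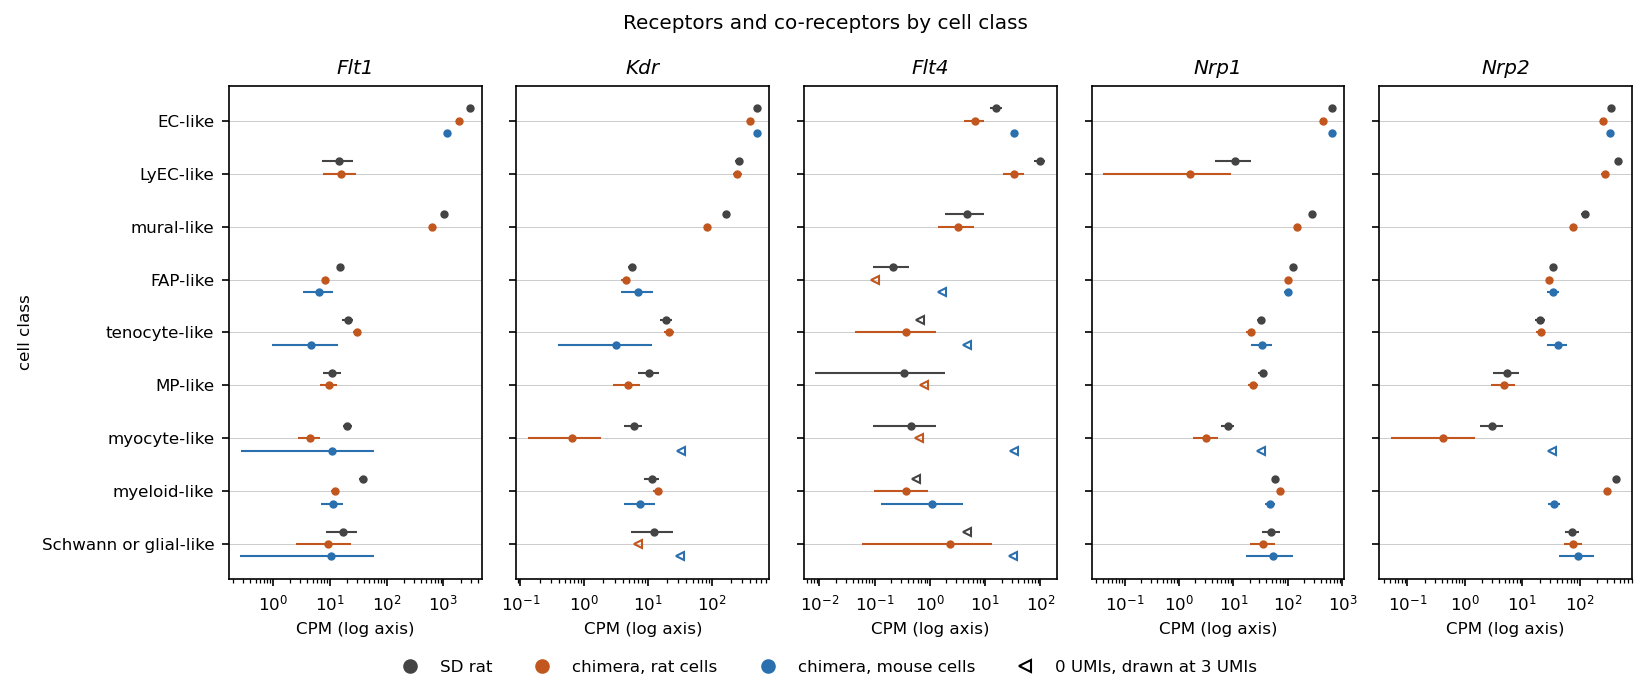
Levels of the 5 receptor and co-receptor genes (CPM, log axis) by cell class in the SD rat, the chimera's rat cells and the chimera's mouse cells, with 95% Poisson intervals and open triangles at 3 UMIs for classes with 0 UMIs. Flt1 and Kdr peak in EC-like cells in all 3, Flt4 in LyEC-like cells of the rat populations, and Nrp2 is shared with myeloid-like cells.

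EC-like cells were divided further into arterial, venous and remaining cells, the last being mostly without a name by the fixed subtype markers. There were 98, 48 and 1015 such cells in the SD rat, 29, 77 and 614 among chimera rat cells and 195, 105 and 698 among chimera mouse cells. Among the ligands, Vegfc was higher in arterial and venous than in the remaining EC-like cells. Arterial EC-like cells had 79.9 CPM (57.1 to 109) in the SD rat, 119 CPM (69.6 to 191) in chimera rat cells and 139 CPM (120 to 161) in chimera mouse cells. Venous EC-like cells had 74.4, 73.4 and 38.4 CPM, and the remaining cells 11.1, 20.9 and 15.8 CPM. The remaining cells lay below both other subtypes in each population beyond the counting intervals.

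Pgf showed the opposite layout in the SD rat and among mouse cells, with 28.9 and 40.6 CPM in the remaining cells and at most 5.99 CPM in arterial or venous EC-like cells. Venous EC-like cells had 0 Pgf UMIs in both of these populations. In chimera rat cells the remaining cells had 28.3 CPM (22.2 to 35.6) and the venous cells 1 UMI. The 29 arterial cells there had 0 Pgf UMIs with an interval of up to 25.9 CPM, which overlaps that of the remaining cells.

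The receptors were layered as well. Flt1 was highest in arterial EC-like cells and lowest in venous ones in all 3 populations, with 3481 against 2205 CPM in the SD rat, 2677 against 1528 CPM in chimera rat cells and 1633 against 790 CPM in chimera mouse cells. Nrp2 was lowest in arterial EC-like cells, with 126, 91.3 and 149 CPM against 422, 236 and 405 CPM in venous EC-like cells. Kdr was highest in the remaining cells, at 549, 481 and 587 CPM, and in venous EC-like cells it was 317, 207 and 178 CPM. Arterial EC-like cells differed between populations in Kdr, with 338 CPM in the SD rat, 63.2 CPM (28.9 to 120, from 9 UMIs in 29 cells) in chimera rat cells and 517 CPM in chimera mouse cells. Nrp1 followed the same layout, with 416, 56.2 and 577 CPM in arterial EC-like cells. The 8 rat capillary markers summed to 3211 CPM in the arterial EC-like cells of the chimera's rat cells and to 8462 CPM in those of the SD rat. The 10 arterial and 10 venous markers summed to 1462 and 1293 CPM in these chimera cells, against 1577 and 861 CPM in the SD rat. The arterial name of the 29 cells is thus less firm, and the part of this makeup in the Kdr and Nrp1 levels was not tested.

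**Figure D3:**
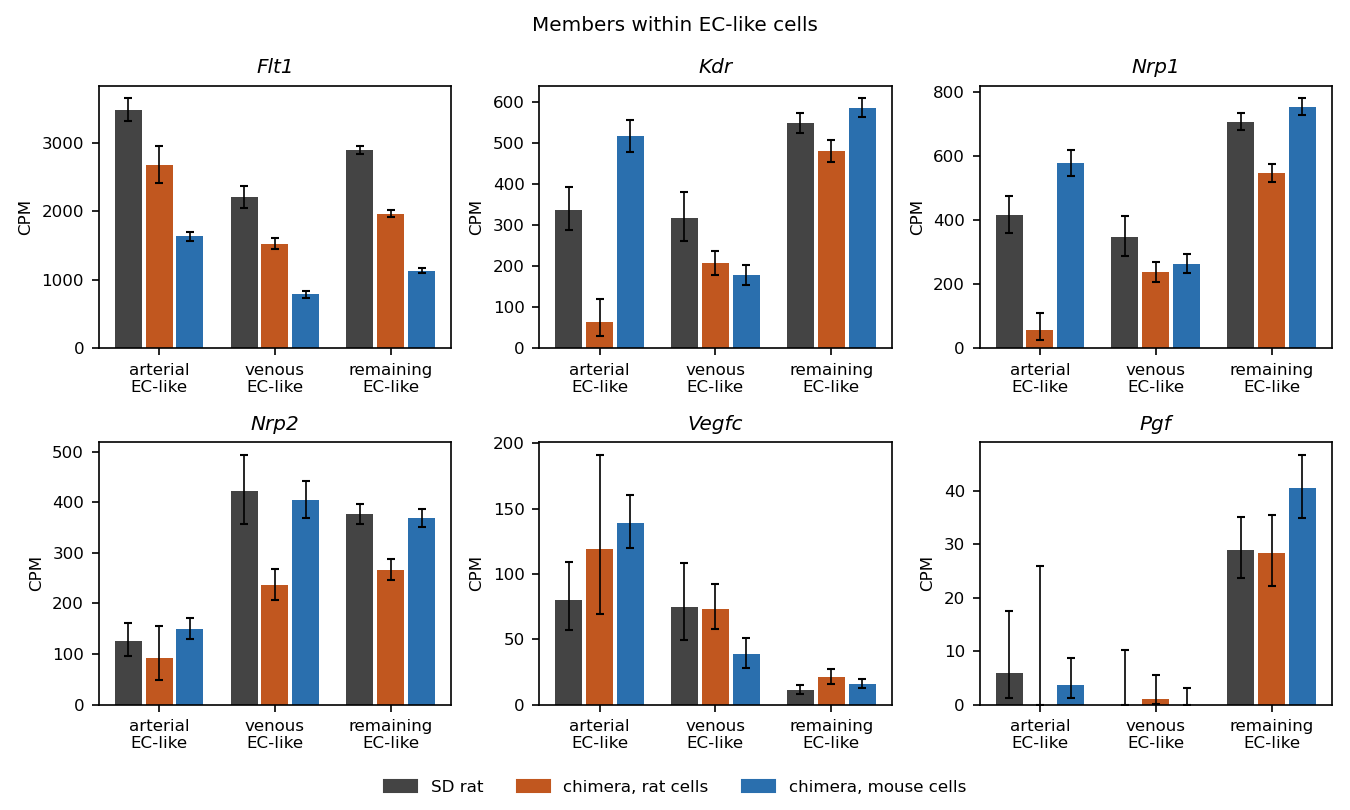
Levels (CPM, bars from 0, with 95% Poisson intervals) of VEGF genes in arterial, venous and remaining EC-like cells of the SD rat, the chimera's rat cells and the chimera's mouse cells. Vegfc is lowest and Kdr highest in the remaining cells. The 29 arterial EC-like rat cells of the chimera stand out by a Kdr level of 63.2 CPM, and their arterial and venous markers summed to 1462 and 1293 CPM.

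The chimera mixes a mostly rat stroma with an endothelium that is partly mouse, so the transcripts of ligands and receptors were assigned to the species of the cell that held them, with the rat and mouse rows of a gene summed. Of 6722 Vegfa UMIs in the chimera, 90.0% (89.3 to 90.7) lay in rat cells, 4.79% in mouse cells and 5.18% in mixed barcodes. Rat FAP-like cells alone held 68.0% and rat myeloid-like cells 10.3%. Of the ligand pools, that of Vegfa had the highest rat share. Rat cells held 76.4% of 1788 Vegfb UMIs, 71.6% of 2642 Vegfc UMIs, 66.9% of 151 Vegfd UMIs and 66.8% of 1990 Pgf UMIs. Rat cells were 8263 of the 11804 kept barcodes, and the rat shares of Vegfc, Vegfd and Pgf lay near that share of barcodes. Mouse EC-like cells held 11.8% of the Vegfc pool and 10.2% of the Pgf pool.

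The receptor pool was placed differently. Mouse EC-like cells were 998 of the kept barcodes (8.45%) and rat EC-like cells 720, with medians of 6301.5 and 4029.5 UMIs. A pool thus depends on cell number and depth as well as on level. Kdr levels were 505 and 392 CPM in mouse and rat EC-like cells, and Flt1 was lower in the mouse cells (1171 against 1876 CPM), alone among the 5 receptors and co-receptors. Mouse EC-like cells held 40.2% (39.2 to 41.2) of 9025 Kdr UMIs, against 16.5% in rat EC-like cells. They held 32.7% of 25797 Flt1 UMIs, against 27.9% in rat EC-like cells, and 49.4% of 490 Flt4 UMIs, against 6.33% in rat EC-like cells. The largest share of Nrp1 was also theirs, with 30.1% of 15288 UMIs, and for Nrp2 they came second at 22.1% of 10852 UMIs after rat myeloid-like cells at 31.5%. Mixed barcodes held 25.0% of Flt1, 25.6% of Kdr and 25.1% of Flt4 UMIs while making up 14.3% of kept barcodes, against 5.18% of Vegfa UMIs. A mixed barcode can hold 1 cell with free RNA of the other species or 2 cells, which cannot be told apart here.

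The possible routes of signalling can be read from these pools only as transcript levels. In the direction from rat cells to mouse endothelium, the ligand transcript with the largest pool was Vegfa of rat FAP-like cells, and mouse EC-like cells held transcripts of all 5 receptors and co-receptors at levels between 33.8 CPM (Flt4) and 1171 CPM (Flt1). In the direction from mouse endothelium to rat cells, mouse EC-like cells held Vegfc at 42.8 CPM and Pgf at 26.8 CPM, with Vegfa at 7.97 CPM. The rat class with the highest level of Flt4, the receptor of VEGF-C, was LyEC-like, and the one with the highest level of Flt1, the receptor of Pgf, was EC-like. Proteins, binding and receptor activity were not measured. In the SD rat, where all cells are rat, FAP-like cells held 84.3% of Vegfa UMIs, and EC-like cells 81.7% of Flt1 and 68.3% of Kdr UMIs. All such shares are of the cells recovered by digestion and sorting, and cells lost there are not counted.

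**Figure D4:**
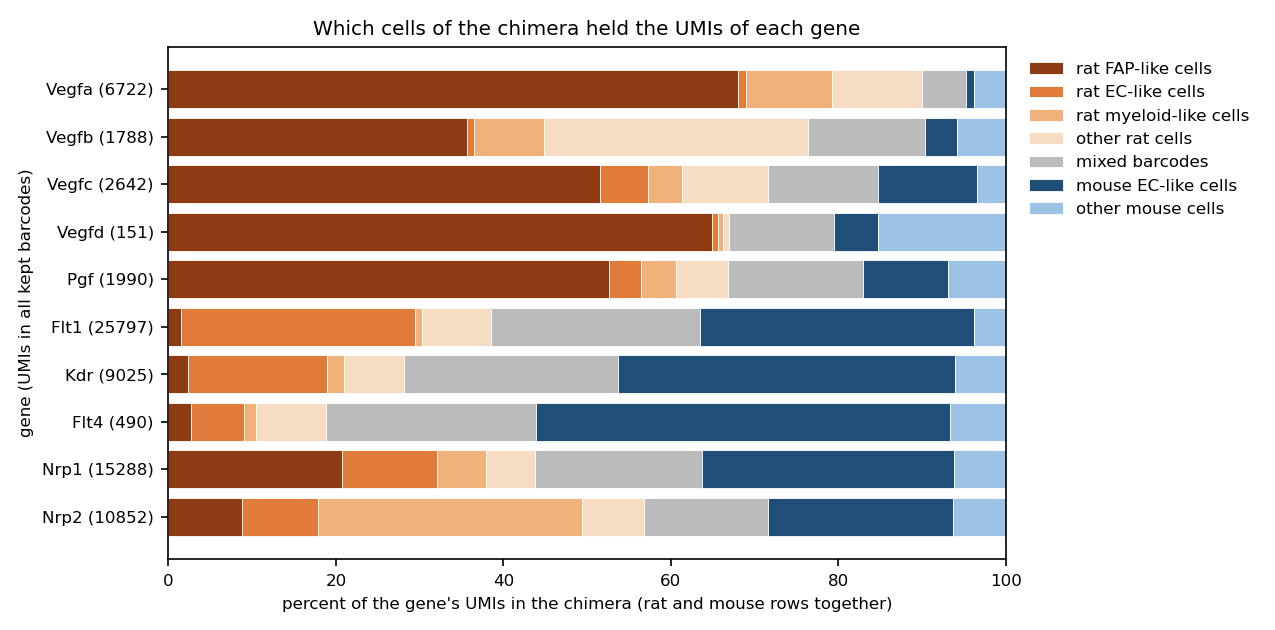
Share (percent, bars from 0) of each member's UMIs in the chimera by the species and class of the cell that held them, with the rat and mouse rows of a gene summed. The ligand bars are mostly rat, at 90.0% for Vegfa, where rat cells were 8263 of the 11804 kept barcodes. Mouse EC-like cells hold 40.2% of Kdr and 49.4% of Flt4.

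The rat cells of the chimera were then set against the SD rat, class by class. A gene counted as past 2-fold when it had at least 20 UMIs in both groups together and its CPM differed at least 2-fold. In EC-like cells 9 of the 10 members had enough UMIs, 0 were past 2-fold higher and 2 were past 2-fold lower, against 12.0% of 10907 genes past 2-fold either way and 7.39% past it lower. The 2 were Flt4, from 15.9 to 6.46 CPM (log2 ratio -1.30, -2.03 to -0.62), and Vegfa, from 28.0 to 11.8 CPM (-1.24, -1.77 to -0.74). With rows summed they were at -1.14 and -0.97. The median of the 9 log2 ratios was -0.54, and the median over all genes tested was -0.08, with quartiles of -0.46 and 0.35.

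The 4 abundant receptors of EC-like cells were lower in the chimera by less than 2-fold. The log2 ratio was -0.63 for Flt1 (-0.68 to -0.59), -0.54 for Nrp1 (-0.63 to -0.45), -0.48 for Nrp2 (-0.60 to -0.37) and -0.37 for Kdr (-0.47 to -0.28). Vegfc went the other way at 0.69 (0.32 to 1.07). With the rat and mouse rows summed, the values were -0.79, -0.67, -0.60, -0.54 and 0.54. The median over all genes was then -0.15, against -0.08 on rat rows. Species limits of 90% and 10% of UMIs, with the cells clustered and named anew, gave 104 rat EC-like cells. Only 46 of the 720 EC-like cells used above had at most 10% of UMIs on mouse rows. The 104 thus include cells that were in other classes there. Flt1 was then at -1.33 and Kdr at -1.34, and 5 members (Vegfa, Flt1, Kdr, Flt4 and Nrp1) were past 2-fold lower. The share of all genes past 2-fold under these limits was not computed. In the 720 cells, 3.21% of the Flt1 UMIs and 2.48% of the Kdr UMIs lay on the mouse row.

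These EC-like values depended on which cells were compared. Rat EC-like cells formed a deeper and a shallower cluster in each animal, with 637 and 524 cells in the SD rat and 535 and 185 cells in the chimera. Between the deeper clusters Flt1 went from 2708 to 1629 CPM (-0.73), and between the shallower clusters from 3483 to 4096 CPM (0.23, 0.15 to 0.32). The Kdr ratio was -0.47 between the deeper and 0.14 (-0.11 to 0.39) between the shallower clusters, so the direction was not the same in both. Flt4 likewise had a ratio of -1.70 in the deeper and 0.26 (-0.96 to 1.36) in the shallower clusters. Vegfa was at -0.39 (-1.05 to 0.26) between the deeper clusters, short of 2-fold, and at -1.83 (-3.19 to -0.71) between the shallower ones. Nrp1 (0.11), Nrp2 (0.04) and Pgf (0.31) lay above 0 in the shallower clusters and Vegfb (0.43) in the deeper ones, with intervals that include 0. Within the chimera, rat EC-like cells with 15% to 20% of UMIs on mouse rows had 2238 CPM of Flt1 and 493 CPM of Kdr, and those with at most 10% had 1481 and 291 CPM. Summed EC markers moved with these bands, from 3035 CPM in the lowest to 4494 CPM in the highest. Muscle transcripts also differed, since myocyte markers summed to 20054 CPM in SD rat and 10340 CPM in chimera rat EC-like cells, and FAP markers to 2525 and 1217 CPM. The makeup by subtype differed as well, with 48 venous and 98 arterial EC-like cells in the SD rat and 77 and 29 in the chimera. Venous cells held 27 of 107 Vegfc UMIs in the SD rat and 73 of 144 in the chimera. The Vegfc levels of the 2 animals were 74.4 and 73.4 CPM in venous, 79.9 and 119 CPM in arterial and 11.1 and 20.9 CPM in the remaining cells. The part of all these differences in the ratios was not tested.

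In FAP-like cells Vegfa was the member past 2-fold, as 1 of 9 with enough UMIs, against 6.99% of 13721 genes either way and 4.02% lower. Its level went from 219.6 to 109.6 CPM, a log2 ratio of -1.00 (-1.06 to -0.94) at the edge of the 2-fold line. Of the Vegfa UMIs in chimera rat FAP-like cells, 29.0% (1325 of 4572) lay on the mouse row, and with both rows summed the chimera level was 136 CPM and the log2 ratio -0.69 (-0.74 to -0.64). All mouse cells together held 309 Vegfa UMIs on the mouse row. Of Flt1 and Kdr, with 8375 and 3613 mouse-row UMIs in mouse EC-like cells, rat FAP-like cells carried 156 and 80 UMIs on the mouse row. The Vegfa ratio was below 0 with the rows summed or apart. The other FAP-like ligands were at 0.64 for Vegfd, 0.34 for Vegfc, 0.29 for Pgf and 0.07 for Vegfb, so Vegfa alone was lower among the 5 ligands in these cells. With rows summed the 4 were at 0.49, 0.21, 0.11 and 0.04.

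On rat rows the Vegfa level was lower in the chimera in all 8 rat classes with at least 20 Vegfa UMIs. Its log2 ratio was -0.88 in tenocyte-like, -0.93 in myeloid-like, -0.84 in MP-like, -0.99 in LyEC-like, -1.84 in myocyte-like and -0.64 (-1.40 to 0.13) in mural-like cells, the interval of the last including 0. With rows summed it was -0.74, -0.65, -0.65, -1.04, -1.66 and -0.14 in the order named. FAP markers in these classes were also lower in the chimera. Their 12 genes summed to 3306 and 1496 CPM in myeloid-like, 2031 and 1229 CPM in MP-like, 1865 and 697 CPM in LyEC-like, 1055 and 499 CPM in myocyte-like and 3628 and 2383 CPM in mural-like cells of the SD rat and the chimera. Tenocyte-like cells, which express these genes themselves, had 81476 and 50655 CPM, and FAP-like cells 70780 and 56211 CPM. The part of FAP transcripts in the Vegfa levels of other classes was not tested. In all chimera rat cells together, 27.8% of the Vegfa UMIs lay on the mouse row, against 4.28% for Vegfc and 0.752% for Pgf.

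In LyEC-like cells Flt4 was lower (-1.55, -2.32 to -0.84), the only one of 7 members past 2-fold, against 10.5% of genes either way, and was at -1.72 with rows summed. Tenocyte-like cells gave 0 of 8 (7.29%). In MP-like cells Kdr was lower (-1.12), as 1 of 6 members, against 6.43% of genes, and was -0.49 with rows summed. Its chimera level there was 4.78 CPM on the rat row and 7.43 CPM with rows summed. In myeloid-like cells Flt1 was lower (38.4 to 12.5 CPM, -1.62), as 1 of 8, against 8.86%, and was -1.23 with rows summed. Schwann or glial-like cells gave 0 of 2 (10.7%).

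Mural-like cells gave 0 of 8 members past 2-fold (8.33% of genes), with Kdr at -0.97 and Nrp1 at -0.95, or -1.09 and -1.03 with rows summed. These ratios set pericyte-like cells of the SD rat against a mixture in the chimera. Between pericyte-like cells alone, a comparison added after the data were seen, 6 of 8 members were past 2-fold, all lower, against 14.2% of genes either way. Flt1 went from 1014 to 142 CPM (-2.84, -3.09 to -2.60) and Kdr from 169 to 8.49 CPM (-4.31, -5.46 to -3.36), and they were at -2.92 and -3.69 with rows summed. Nrp1 (-1.50), Nrp2 (-1.39), Vegfc (-1.57) and Pgf (-1.71) were the others, at -1.52, -1.52, -1.78 and -1.92 with rows summed. EC markers went from 1707 to 265 CPM in the same cells, and their part in these ratios was not tested.

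In myocyte-like cells 5 of 6 members were past 2-fold, all of them lower, against 14.7% of genes either way, and 4 of these 5 were Flt1, Kdr, Nrp1 and Nrp2 at or below 20.5 CPM in the SD rat. With rows summed Vegfa (-1.66) and Flt1 (-1.16) stayed past 2-fold, while Kdr was at -0.44, Nrp1 at -0.44 and Nrp2 at -0.80. Kdr in these chimera cells was at 0.633 CPM on the rat row and 4.41 CPM with rows summed. In rat EC-like cells of the chimera the same values were 392 and 349 CPM. The part of free mouse RNA in the summed values was not tested. EC markers summed to 44.9 CPM in SD rat and 16.2 CPM in chimera myocyte-like cells, and FAP markers to 1055 and 499 CPM. The part of these transcripts in the ratios was not tested.

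Mouse and rat EC-like cells shared 1 muscle in the chimera and could be compared within 1 library. Of 9 members with enough UMIs, Flt4 and Vegfb were past 2-fold higher in mouse cells and 0 were lower, against 38.4% of 10448 genes of the same name past 2-fold either way. The rat and mouse rows belong to different genome annotations, so a difference in level and a difference in how transcript ends are annotated cannot be told apart. What made this background wide was not tested. Flt4 was at 33.8 against 6.46 CPM (log2 ratio 2.39, 1.78 to 3.06) and Vegfb at 9.23 against 4.04 CPM (1.19, 0.37 to 2.11). Flt1 was lower by less than 2-fold (-0.68), and Nrp1 (0.52), Nrp2 (0.40) and Kdr (0.37) were higher by less than 2-fold. Against the shallower rat cluster alone Flt4 was at 0.33 (-0.57 to 1.41), Vegfb had 0 UMIs in the rat cells, and Nrp1 and Nrp2 were below 0 (-0.19 and -0.27). Vegfa (-1.24) and Flt1 (-1.81) were the members past 2-fold there, and the share of all genes past 2-fold was not computed for that cluster. Against the SD rat, the mouse EC-like cells had nearly the same levels of Kdr (505 and 507 CPM, log2 ratio -0.00, -0.08 to 0.07), Nrp1 (-0.01, -0.08 to 0.05) and Nrp2 (-0.08, -0.17 to 0.01). Flt1 (-1.31) and Vegfa (-1.81) were past 2-fold lower and Flt4 (1.09) past 2-fold higher, where 40.2% of genes were past 2-fold either way.

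FAP-like cells of both species were compared in the same way, where 37.0% of 11596 genes were past 2-fold. Of 9 members, Vegfd was higher in mouse cells (10.3 against 3.24 CPM, log2 ratio 1.67) and Vegfc lower (21.8 against 44.4 CPM, -1.03). Vegfa was at -0.91 and Nrp1 at -0.02 (-0.24 to 0.20).

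Genes around the VEGF pathway were followed in EC-like cells by 4 lists. In rat cells of the chimera against the SD rat, oxygen sensing and Vegfa regulation (Hif1a, Vhl and others) had 0 of 8 genes tested past 2-fold, and receptor partners and signal relay 0 of 19. Ligand processing and competing semaphorins had 1 of 9, Sema3c, a semaphorin that binds neuropilins, which was lower (13.9 to 4.31 CPM, log2 ratio -1.69). Endothelial genes known to respond to VEGF had 2 of 14. The share over all genes was 12.0%. Of the responsive genes, Plvap, which forms the diaphragms of fenestrae and caveolae, was higher (201 to 512 CPM, 1.35, 1.23 to 1.46), and Dll4, the Notch ligand of tip cells and arteries, was lower (145 to 55.2 CPM, -1.40, -1.63 to -1.17). The part of the different numbers of arterial and venous cells in these ratios was not tested. The medians of the 4 lists were 0.06, -0.28, -0.07 and -0.09 in the order named, near the -0.08 of all genes apart from signal relay.

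Between mouse and rat EC-like cells of the chimera the same lists gave 1 higher and 1 lower of 9 genes for oxygen sensing, 1 and 3 of 20 for signal relay, 2 and 0 of 6 for semaphorins and 3 and 3 of 15 for VEGF-responsive genes, where 38.4% of all genes were past 2-fold either way. The counts for semaphorins and responsive genes lay near that share, and those for oxygen sensing and relay below it. Among the responsive genes, Nrarp, a Notch target (39.7 against 296 CPM, log2 ratio -2.90), and Esm1, a tip cell gene (62.5 against 175 CPM, -1.49), were lower in mouse cells. Cd34 (399 against 99.3 CPM, 2.01) and Egr3, an immediate early transcription factor (17.5 against 2.15 CPM, 3.02), were higher. Sema3g, a semaphorin of arteries, was at 22.9 against 3.50 CPM (2.71), Vhl, which marks hypoxia factors for decay, at 7.27 against 29.9 CPM (-2.04), and Shb, an adaptor of VEGFR2, at 59.8 against 166 CPM (-1.47). The 1 higher relay gene was Mapk3, whose rat row held 0 UMIs in EC-like cells of both animals, so it gives no comparison of level. The 1 higher oxygen-sensing gene was Esrra, whose rat row held 0 UMIs in chimera rat and 3 UMIs in SD rat EC-like cells, and it gives none either.

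Genes with a pattern most like a member were sought over the 10 named SD rat classes with at least 50 cells, by Pearson's r of log2(CPM + 10) over 5951 genes that reached 50 CPM in a class. For Flt1 these were Sox17, Tmem255b and C1qtnf9 (r of 0.99 each), for Kdr Shank3, Adgrl4 and Robo4 (0.99 each), and for Nrp2 Lipa (0.98), Elk3 (0.96) and Arhgap26 (0.95). Vegfa had no partner as close, with Fgf18 at 0.86, Acp5 at 0.85 and Colec12 at 0.83. All values come from 1 library with shared cells and depth, and 10 points describe a pattern only.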

How the data were processed

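Single-cell libraries of skeletal muscle from 1 rat-mouse chimera and 1 SD rat were analysed from the deposited count matrices (UMI counts per gene and barcode), which the authors made with Cell Ranger 7.1.0, on mRatBN7.2 and GRCm39 rows for the chimera and on the rat rows only for the SD rat. Barcodes with at least 500 UMIs, 200 genes and at most 20% mitochondrial UMIs were kept, and doublets were predicted at an expected rate of 8% and removed (381 in the chimera, 164 in the SD rat). Rat and mouse cells were clustered separately (scanpy 1.11.5, Leiden resolution 1, 2000 variable genes, 30 components) without the 10 VEGF genes. Clusters were named from marker lists, by a scoring rule set after the clusters were seen. Macrophage-like with monocyte or neutrophil-like cells, and pericyte-like with smooth muscle-like cells, were pooled after the clusters were seen. Members, pathway lists and markers were chosen with earlier results of these data known.

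UMIs were summed per class and divided by the class total of the same species (CPM). No p-value was computed, since each group was 1 library. Ratios were checked on simulated data with known fold changes. The text names all 10 members, up to 4 pathway genes with the largest ratio each way among those past 2-fold with at least 50 UMIs, and the 3 genes most like Vegfa, Flt1, Kdr and Nrp2. Promoter windows were RefSeq GRCr8. Alternatives covered the species limits, doublets, cell filter, resolution, clustering genes, rows, normalization, denominator, pseudocount, low counts and weighting of cells.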

Additional observations from a re-analysis of the deposited data

How the results depend on the processing

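Of 76 alternative values for the 7 results that answer a comparison, 44 stayed within the counting interval (or within 1.5 times, for a count), 30 moved outside it and 2 changed sign. The sign changes came from leaving out the deeper rat EC-like clusters, an alternative chosen after seeing the data, with log2 ratios of 0.23 for Flt1 and 0.14 for Kdr, where leaving out the shallower clusters gave -0.73 and -0.47 and 1 member past 2-fold. Among 1162 values for 123 other results, 64 changed sign, 12 of them with a pair of EC-like clusters left out, and 1 of the 64 belonged to a member past 2-fold, Flt4 in EC-like cells without the deeper clusters (0.26). Species limits of 90% and 10%, with new clustering, gave 104 rat EC-like cells, of which at most 46 were EC-like in the main setting. The values were -1.33 for Flt1, -1.34 for Kdr and -1.10 for Vegfa in FAP-like cells, with 5 members past 2-fold (Vegfa, Flt1, Kdr, Flt4, Nrp1). Rat cells held 29.2% of Vegfa UMIs and mouse EC-like cells 34.3% of Kdr UMIs, since most rat cells then counted as mixed (7387 barcodes). Calling each barcode by its majority species gave -0.68, -0.51, 93.0% and 56.4% for Flt1, Kdr and both pools, and 1 member past 2-fold between mouse and rat EC-like cells. Summed rows gave -0.79, -0.54 and -0.69 for Flt1, Kdr and FAP-like Vegfa, and 1 member past 2-fold in EC-like cells, against 12.2% of genes either way. A minimum of 100 UMIs gave 1 member in each count. For the other alternatives the share of all genes past 2-fold was not computed, so their member counts have no share to be read against. Median-of-ratios scaling gave -0.56 for Flt1 and -1.07 for Vegfa, the mean of single cells -0.56 for Flt1 and -0.18 for Kdr, and resolution 0.5 gave -0.59 for Flt1 and 45.4% for the Kdr pool. That pool was 38.8% with doublets kept, 41.4% with at least 1000 UMIs per cell and 41.3% with members among the clustering genes, and the Vegfa pool was 88.5% with doublets kept. Beyond the loss of cells named above, the cause was not tested. No paired analysis was possible because each group was 1 library. No replicate could be left out for the same reason. Depth limited Vegfd and Flt4 most, with 78 and 165 UMIs in the SD rat, and levels of classes under 50 cells rest on few UMIs.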

Other observations

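Clusters that the markers did not name held VEGF receptor transcripts too. An unnamed SD rat cluster of 481 cells with a median of 704 UMIs, led by Fabp4 and Cdh5, had 633 CPM of Flt1, 281 CPM of Kdr and 249 CPM of Nrp1. An unnamed cluster of 102 mouse cells, led by Cldn5 and Gpihbp1 and with a median of 985 mouse-row UMIs, had 206 CPM of Flt1, 261 CPM of Kdr and 316 CPM of Nrp1. An unnamed cluster of 52 mouse cells led by Cd74 and Ccr7 had 137 CPM of Nrp2. Mouse erythroid-like cells (28 cells) had 767 CPM of Flt1 and 367 CPM of Kdr. None of these cells entered the EC-like values.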
